A study of Homo sapiens with 9 samples.

Results

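The 9 genes described here encode the structural proteins of the desmosome, the junction that ties the keratin filaments of neighbouring epithelial cells together: the desmosomal cadherins DSC2, DSC3, DSG2 and DSG3, the armadillo proteins JUP, PKP1, PKP2 and PKP3, and the plakin DSP. They were chosen by name, as the rows of a table of gene counts whose identifiers map to these symbols, and the rule uses no measured value, although the set was proposed with earlier results of these data known. All 9 were among the 26186 genes of the table, and 8 of them, all but PKP1, were among the 16235 genes with enough counts to be tested. Polyadenylated RNA had been sequenced from MCF10A, an established line of human breast epithelial cells that does not form tumours. Every group, controls included, had been infected with a pLKO.1 lentivirus expressing a short hairpin RNA and placed in 2 µg/mL puromycin from 24 hours after infection, and RNA was collected after 3 days. Controls carried a hairpin against green fluorescent protein (shGFP), and the other groups carried either of 2 hairpins against CHAF1B (shCHAF1B-1 and shCHAF1B-2), with 3 libraries in each group. CHAF1B is a subunit of CAF-1, the complex that deposits histones H3 and H4 on newly replicated DNA, and the series asked how RNA levels differ when it is suppressed. The design rests on a single cell line and bulk RNA, in which fewer cells expressing a gene and less RNA per cell cannot be told apart. The labels number the replicates without saying that they are separate cultures, so the p-values below may measure only technical spread.

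A desmosome is built in layers. Outside the cell, desmocollins (DSC) and desmogleins (DSG) of adjoining cells bind each other. Inside, their tails hold plakoglobin (JUP) and the plakophilins (PKP), which in turn bind desmoplakin (DSP), and the far end of DSP grips the keratin filaments. Epithelia use different mixtures of the paralogues: DSC2 and DSG2 are found in nearly all tissues that have desmosomes, including simple epithelia and heart, whereas DSC3 and DSG3 are typical of the basal layers of stratified and complex epithelia. JUP also takes part in adherens junctions, where it can replace the closely related beta-catenin.

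Total counts per library ran from 24339914 to 31819468. CHAF1B RNA was 37.7 ± 3.00 CPM (counts scaled to library size with TMM; mean ± SD, n = 3 in each group here and below) in shGFP, 3.29 ± 0.670 in shCHAF1B-1 and 3.21 ± 0.623 in shCHAF1B-2, so all 6 knockdown libraries matched their labels. The summed level of 5 epithelial markers was 3333 to 3777 CPM in shGFP, 3774 to 4398 CPM with shCHAF1B-1 and 3624 to 4087 CPM with shCHAF1B-2. They did not move together. By the test described below, KRT8, KRT18 and CDH1 were higher with both hairpins. EPCAM was lower with both (log2 fold changes of -0.34 and -0.23), and KRT7 did not pass. The sum of 5 basal epithelial markers, of which all 5 were measured, was 8151 to 8710 CPM in shGFP and 5011 to 5421 CPM in the knockdown libraries. All 8 of 8 B lymphocyte markers were highest in shCHAF1B-1 replicate 3, where they summed to 243 CPM against 0.609 to 1.54 CPM in the other libraries, so the calls and fold changes with shCHAF1B-1, the list counts and the shares are also given without it below. Markers of cardiac muscle, the other tissue best known for desmosomes, summed to no more than 1.04 CPM in any library (2 of 4 in the table).

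The desmosome genes did not move as 1 group after CHAF1B suppression. DSC2 doubled with each hairpin, JUP rose by less, and DSG2 rose slightly, while DSG3 and DSP fell with each hairpin to between 75.3% and 81.5% of the control level. With shCHAF1B-1, 3 of the 8 tested genes were higher (DSC2, DSG2 and JUP; 27.9% of all tested genes were higher) and 3 were lower (DSC3, DSG3 and DSP; 25.2% of all were lower). With shCHAF1B-2, 3 were higher, again DSC2, DSG2 and JUP (26.7% of all), and 2 were lower, DSG3 and DSP (24.6% of all). Past the threshold in the same direction with both hairpins were 3 higher genes (23.8% of all) and 2 lower genes (20.8% of all). These comparisons share the shGFP libraries and are not independent of each other. The median log2 fold change of the 8 genes was 0.01 and -0.03 with the respective hairpins, against -0.00 and -0.01 over all tested genes, and their shares of calls lay near those of all genes. Calls used edgeR's quasi-likelihood test with Benjamini-Hochberg adjustment over all tested genes and a threshold of 0.05. Without shCHAF1B-1 replicate 3, the genes higher with that hairpin numbered 2, since DSG2 no longer passed, and 3 were lower, as before. Higher with both hairpins were then 2 genes. Of all 16544 genes tested in that fit, 4257 were higher and 3745 lower with shCHAF1B-1, and 3755 were higher with both hairpins.

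**Figure D1:**
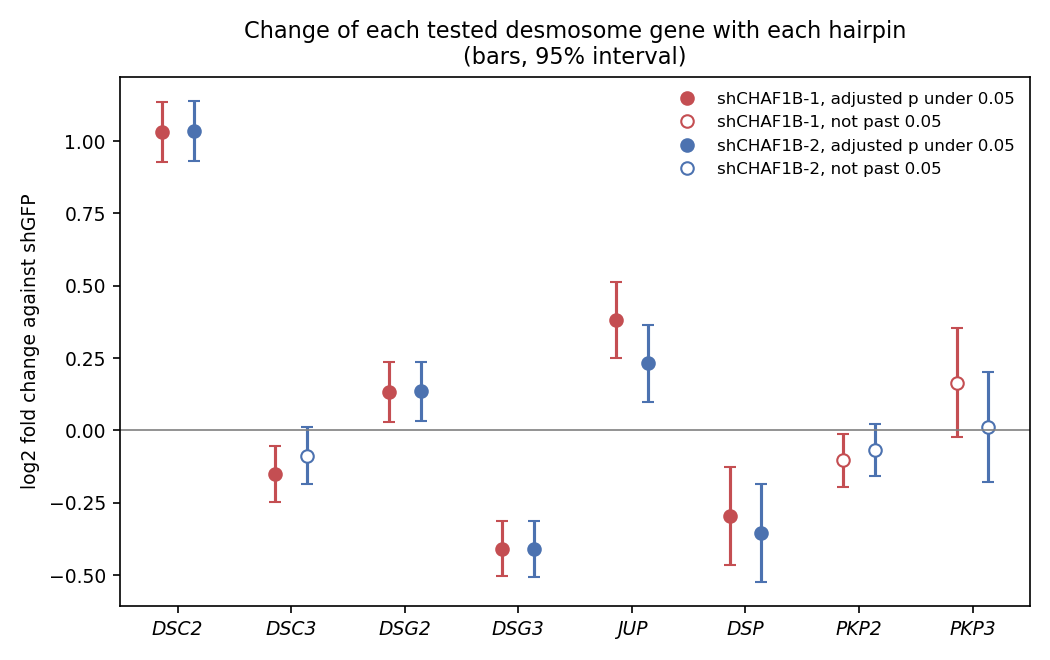
Log2 fold change against shGFP (y axis) of each tested desmosome gene (x axis) with shCHAF1B-1 (red) and shCHAF1B-2 (blue); bars are 95% intervals, and filled points passed an adjusted p of 0.05. DSC2 stands at 1.03 and 1.04, JUP at 0.38 and 0.23, and DSG3 and DSP lie below 0 with both hairpins.

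The desmocollin DSC2, the widely expressed partner of the desmogleins, had levels of 58.3, 54.2 and 59.0 CPM in the shGFP libraries. It had 114, 121 and 116 CPM with shCHAF1B-1 and 116, 116 and 119 CPM with shCHAF1B-2. Every knockdown library thus lay far above every control library, and the knockdown libraries lay close together. DSC2 rose by a log2 fold change of 1.03 (SE 0.0480, 95% interval 0.93 to 1.13, adjusted p = 1.0e-09) with shCHAF1B-1 and of 1.04 (SE 0.0481, 95% interval 0.93 to 1.14, adjusted p = 1.1e-09) with shCHAF1B-2, or 2.04- and 2.05-fold. A larger rise than that of DSC2 was seen for 6.24% of all tested genes with the first hairpin and 5.42% with the second. DSC2 is transcribed opposite to the antisense gene DSCAS and the kit does not keep strand. DSCAS had 11 counts in all 9 libraries against 22799 for DSC2. Reads from the stretch they share cannot be told apart by strand, so any part of antisense RNA in the DSC2 counts was not tested.

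DSC3, the desmocollin of basal and stratified cells, changed far less and in the other direction. Its levels were 141, 138 and 139 CPM in shGFP, 123, 126 and 127 CPM with shCHAF1B-1, and 132, 137 and 124 CPM with shCHAF1B-2. All 6 knockdown libraries lay below the 3 controls, the highest of them, shCHAF1B-2 replicate 2, only just. The fall passed the threshold with shCHAF1B-1 (log2 fold change -0.15, SE 0.0455, adjusted p = 0.0127) and not with shCHAF1B-2 (-0.09, SE 0.0455, adjusted p = 0.127). The difference between the hairpins was 0.06 with a 95% interval of -0.04 to 0.16. Under upper-quartile scaling and with no scaling beyond the library total, DSC3 was also called lower with shCHAF1B-2, at -0.12 and -0.17.

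Among the desmogleins, DSG3, which is best known as the autoantigen of pemphigus vulgaris, had levels of 252, 243 and 243 CPM in shGFP. It had 187, 182 and 186 CPM with shCHAF1B-1 and 192, 186 and 177 CPM with shCHAF1B-2. The groups were well separated, with the highest knockdown library, shCHAF1B-2 replicate 1, still far under the lowest control. DSG3 fell by 0.41 on the log2 scale with each hairpin (SE 0.0443 in both; adjusted p = 4.0e-06 and 4.2e-06), to 75.3% of the control level. The difference between the hairpins was -0.00, with a 95% interval of -0.10 to 0.09.

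DSG2, the desmoglein of simple epithelia and heart, had levels of 441, 438 and 451 CPM in shGFP. It had 466, 503 and 489 CPM with shCHAF1B-1 and 508, 489 and 464 CPM with shCHAF1B-2. All 6 knockdown libraries were above the controls, the nearest being shCHAF1B-2 replicate 3. The change was a log2 fold change of 0.13 with each hairpin (SE 0.0477 in both; adjusted p = 0.0314 and 0.0302), smaller than the median absolute change of all tested genes, which was 0.30 and 0.29. This call was lost in 9 of 19 alternative analyses for shCHAF1B-1 and 8 of 19 for shCHAF1B-2. Among them was leaving out shCHAF1B-1 replicate 3, the library with B lymphocyte RNA (0.13, adjusted p = 0.0734). For shCHAF1B-1 it was also lost without shGFP replicate 1 (0.13), shGFP replicate 2 (0.12) or shCHAF1B-1 replicate 2 (0.11). For shCHAF1B-2 it was lost without shGFP replicate 1 (0.13), shGFP replicate 2 (0.13), shCHAF1B-2 replicate 1 (0.10) or shCHAF1B-2 replicate 2 (0.13). With no scaling beyond the library total the values were 0.05 (adjusted p = 0.457) and 0.06 (adjusted p = 0.363). The antisense gene DSG2-AS1, which overlaps the end of DSG2, had 93 counts over all libraries.

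**Figure D2:**
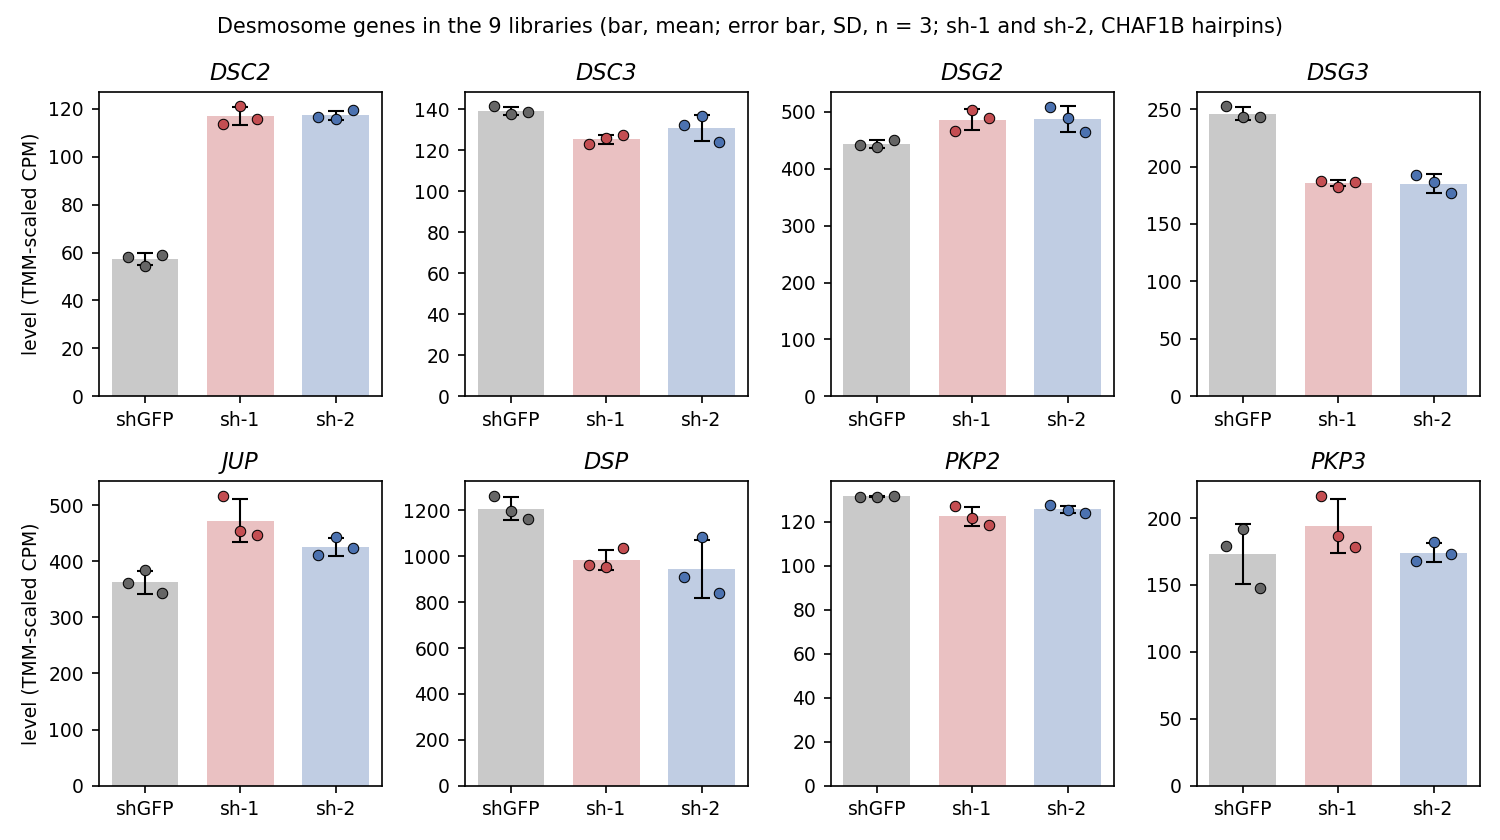
Level of each tested desmosome gene in TMM-scaled CPM (y axes, each from 0) in the 3 libraries of each group (points), with group means (bars) and SD (error bars); sh-1 and sh-2 are the CHAF1B hairpins. The DSC2 points go from 54.2 to 59.0 CPM in shGFP to 114 to 121 CPM in the knockdown libraries, whereas the PKP3 groups overlap.

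The 4 cadherin genes sit in 1 cluster on chromosome 18 (GRCh38), which spans 559 kb from DSC3 to DSG2 and also holds DSC1, DSG1 and DSG4. DSC3 occupies chr18:30990008-31042815 and DSC2 chr18:31058840-31102522, both on the minus strand, and their start sites are 59.7 kb apart. DSG3 lies at chr18:31447795-31478702 and DSG2 at chr18:31498043-31549008, both on the plus strand. At one end DSC2 rose with both hairpins, while DSC3 fell with shCHAF1B-1 and had -0.09 with shCHAF1B-2, which was not past the threshold. At the other, where the start sites of DSG3 and DSG2 lie at 405 and 455 kb from that of DSC3, DSG3 fell, while the rise of DSG2, 0.13 with each hairpin, lost its call in 9 and 8 of 19 alternatives. DSC1, a desmocollin of differentiated epidermis, had 0 counts in the shGFP libraries and 7 in the 6 knockdown libraries together, too few to test. DSG1 and DSG4 were not among the 26186 genes of the table, so no level is given for them. On the desmoglein side, TTR, the gene of a thyroid hormone carrier, had 0 counts in shGFP and 17 in the knockdown libraries. B4GALT6, a galactosyltransferase gene farther on that was named after its values were seen, rose with log2 fold changes of 0.32 and 0.44 (SE 0.0741 and 0.0742; adjusted p = 0.00240 and 2.4e-04); the first was 0.34 (adjusted p = 0.00457) without shCHAF1B-1 replicate 3.

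**Figure D3:**
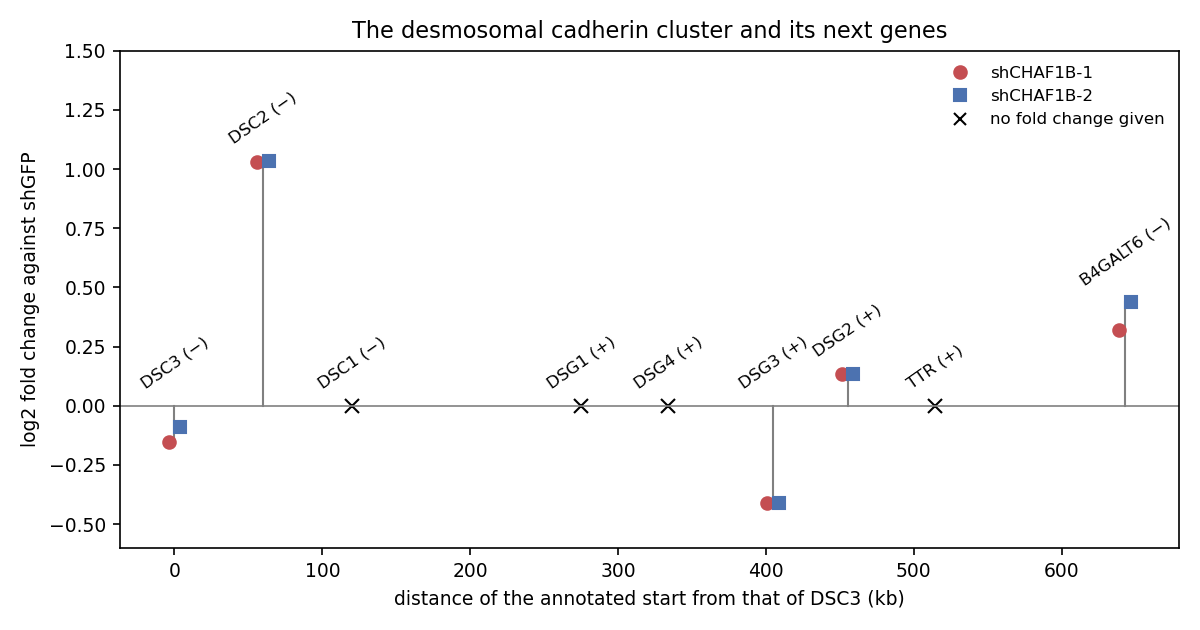
Log2 fold change against shGFP (y axis) of the genes of the desmosomal cadherin cluster and the genes beyond it, by distance of the annotated start from that of DSC3 in kb (x axis), with strand in brackets. Crosses, drawn at 0, mark genes that were not tested, so their height is not a measured value. DSC2, at 59.7 kb, stands at 1.03 and 1.04 between DSC3, below 0, and DSC1, and DSG3 at -0.41 is followed by DSG2 at 0.13.

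The sequence just upstream of the starts of the 4 cadherin genes is shown because DSC2 and DSG3, the called genes with the largest rise and fall, lie beside paralogues with smaller changes. That of DSP, which also fell, is added. The sequences are from RefSeq (GRCh38.p14), 5′ to 3′ on the strand of the gene, and stop before the RefSeq start or the start of the GENCODE gene, whichever comes first. Capitals mark the E-box CACCTG or its complement CAGGTG, a motif bound by repressors of the Snail and ZEB families, searched on both strands. They cover chr18:31102523-31102671 (minus) for DSC2, chr18:31042816-31042992 (minus) for DSC3, chr18:31497927-31498042 (plus) for DSG2, chr18:31447491-31447740 (plus) for DSG3 and chr6:7541421-7541574 (plus) for DSP.
DSC2: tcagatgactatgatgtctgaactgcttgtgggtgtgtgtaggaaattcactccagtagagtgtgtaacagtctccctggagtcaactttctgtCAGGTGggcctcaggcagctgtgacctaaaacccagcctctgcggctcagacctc
DSC3: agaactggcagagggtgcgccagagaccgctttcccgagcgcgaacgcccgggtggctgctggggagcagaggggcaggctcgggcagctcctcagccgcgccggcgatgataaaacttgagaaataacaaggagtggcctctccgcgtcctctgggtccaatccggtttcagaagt
DSG2: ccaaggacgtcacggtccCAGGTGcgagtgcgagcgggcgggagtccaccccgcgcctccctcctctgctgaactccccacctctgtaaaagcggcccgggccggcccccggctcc
DSG3: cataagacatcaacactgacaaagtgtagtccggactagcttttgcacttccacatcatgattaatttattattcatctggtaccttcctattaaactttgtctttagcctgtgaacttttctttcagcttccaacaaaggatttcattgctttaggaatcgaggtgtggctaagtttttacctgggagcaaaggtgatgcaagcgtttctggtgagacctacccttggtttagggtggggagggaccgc
DSP: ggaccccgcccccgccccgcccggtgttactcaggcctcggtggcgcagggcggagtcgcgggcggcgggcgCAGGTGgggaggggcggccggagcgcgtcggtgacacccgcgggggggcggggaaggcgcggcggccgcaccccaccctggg
The printed DSC2, DSG2 and DSP sequences each hold 1 E-box, and those of DSC3 and DSG3 hold none. DSC2 doubled, DSG2 changed little and DSP fell, and any part of the motif in these changes was not tested. Over the full RefSeq windows, from 250 bases before to 50 after a start, 7 of the 9 genes had an entry, in 9 windows, and 4 windows held the motif: 1 of those of DSC2, with the first base of the motif at -156 from the start, that of DSG2 (-232 and -116), that of DSP (-178 and -85) and 1 of those of JUP (-54 and -43). Of all 35116 windows of this length, 20.6% held it. The AP-1 type site TGANTCA, which reads the same on both strands, occurred in 0 of the 9 windows and in 7.71% of all windows. The DSG3 window had a GC content of 44%, the DSG2 window 76.7% and the DSP window 77%, against a median of 58.7% over all windows. PKP2 and PKP3 had no entry.

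JUP, on chromosome 17 (chr17:41754604-41786931, minus strand), encodes plakoglobin, which binds cadherin tails. Its levels were 361, 384 and 343 CPM in shGFP, 517, 453 and 448 CPM with shCHAF1B-1, and 411, 442 and 424 CPM with shCHAF1B-2. Every knockdown library was above every control, and shCHAF1B-1 replicate 1 was the highest. JUP rose with a log2 fold change of 0.38 (SE 0.0615, adjusted p = 1.5e-04) with shCHAF1B-1 and of 0.23 (SE 0.0615, adjusted p = 0.00637) with shCHAF1B-2, or 1.30- and 1.17-fold. The difference between the hairpins, -0.15 with a 95% interval of -0.28 to -0.02, had an unadjusted p of 0.0292 and an adjusted p of 0.439. In that comparison edgeR called 0% of all tested genes higher and 0% lower, and DESeq2 and limma-voom also called 0 genes. An unadjusted p under 0.05 was found for 1800 of all 16235 tested genes and for 1 of the 8 tested desmosome genes, JUP. JUP messenger RNA is rich in G and C (61.5% of its longest transcript), and it falls in the highest of 5 equal classes of GC content among the 12699 tested protein-coding genes. The median log2 fold change of that class was 0.08 with shCHAF1B-1 and -0.05 with shCHAF1B-2. Relative to these medians JUP stood at 0.30 and 0.28. The classes were added after values were seen, and a part of GC content in the hairpin difference was not tested. In shCHAF1B-1 replicate 1, the class as a whole deviated from its group mean by 0.09 and JUP by 0.13, both on the log2 scale.

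DSP, on chromosome 6 (chr6:7541575-7586717, plus strand), encodes desmoplakin, the link from the plaque to keratin. Its levels were 1264, 1196 and 1164 CPM in shGFP, 963, 954 and 1035 CPM with shCHAF1B-1, and 911, 1085 and 838 CPM with shCHAF1B-2. All 6 knockdown libraries were below the controls, but shCHAF1B-2 replicate 2 was near them and that group had the widest spread. DSP fell by 0.30 on the log2 scale (SE 0.0778, adjusted p = 0.00564) with shCHAF1B-1 and by 0.35 (SE 0.0779, adjusted p = 0.00176) with shCHAF1B-2, to 81.5% and 78.2% of the control level. The difference between the hairpins was -0.06 with a 95% interval of -0.23 to 0.11. The fall kept its call in all 19 alternatives with each hairpin, between -0.38 and -0.26 and between -0.46 and -0.27. DSP has a long messenger RNA, with 9796 bases in its longest transcript, and tested protein-coding genes whose longest transcript has at least 8 kb had a median log2 fold change of 0.07 with each hairpin.

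The plakophilins, which widen the plaque by binding DSP and the cadherins, did not pass the threshold with either hairpin. PKP2 (chr12:32790745-32896840, minus strand), the plakophilin of simple epithelia and heart, had 131.5, 131.5 and 131.9 CPM in shGFP, 127, 122 and 119 CPM with shCHAF1B-1, and 128, 125 and 124 CPM with shCHAF1B-2. All 6 knockdown libraries were below the controls, by a few CPM. Its log2 fold changes of -0.10 (SE 0.0420, adjusted p = 0.0522) and -0.07 (SE 0.0420, adjusted p = 0.206) did not pass. The first passed in 7 of 19 alternatives, among them leaving out shCHAF1B-1 replicate 1 (-0.13, adjusted p = 0.0350) or shCHAF1B-2 replicate 3 (-0.10, adjusted p = 0.0434). PKP3 (chr11:392614-404908, plus strand), a plakophilin of most epithelia, had 179, 192 and 148 CPM in shGFP, 217, 187 and 178 CPM with shCHAF1B-1, and 168, 182 and 173 CPM with shCHAF1B-2. These groups overlapped, with shGFP replicate 3 the lowest and shCHAF1B-1 replicate 1 the highest. The log2 fold changes of PKP3 were 0.17 (SE 0.0879, adjusted p = 0.132) and 0.01 (SE 0.0883, adjusted p = 0.928), and the first passed only without shGFP replicate 2 (0.25, adjusted p = 0.0402). PKP3 belongs to the same GC class as JUP, with 66.7% G and C, and its deviations of -0.22 in shGFP replicate 3 and 0.17 in shCHAF1B-1 replicate 1 went with class medians of -0.10 and 0.09.

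PKP1 (chr1:201283452-201332993, plus strand), the plakophilin of stratified epidermis, was barely present. It had 0, 3 and 5 counts in the shGFP libraries, 7, 2 and 4 with shCHAF1B-1, and 1, 3 and 2 with shCHAF1B-2, and no fold change is given. The 0 in shGFP replicate 1 allows up to 0.121 CPM, the level of 3 counts in that library by its total alone, without TMM scaling.

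Of the 8 tested genes and PKP1, 3 (DSC2, DSG2 and JUP) had all 6 knockdown libraries above all 3 controls, and 4 (DSC3, DSG3, DSP and PKP2) had all 6 below. Over all tested genes these arrangements were found for 25.8% and 22.7%.

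Levels can be compared between genes only per length of transcript, here as CPM per kb of the union of annotated exons. In shGFP, DSP had the highest level at 120 ± 5.05 CPM per kb. JUP at 73.4 ± 4.13 and DSG2 at 71.6 ± 1.03 CPM per kb followed, with overlapping libraries. PKP3 at 45.7 ± 5.95 and DSG3 at 44.5 ± 0.966 CPM per kb also overlapped. DSC3 at 19.7 ± 0.262 and PKP2 at 18.7 ± 0.0305 CPM per kb were lower, then came DSC2 at 4.58 ± 0.208 and PKP1 at 0.0152 ± 0.0142 CPM per kb. DSC2, the member with the largest rise, thus started from the lowest level of the tested genes, and at 9.34 ± 0.302 and 9.38 ± 0.154 CPM per kb in the knockdown groups it was still the lowest of the 8. DSP and JUP, which did not overlap in shGFP, overlapped in both knockdown groups, at 97.5 ± 4.41 and 95.6 ± 7.77 CPM per kb with shCHAF1B-1 and 93.6 ± 12.6 and 86.2 ± 3.18 CPM per kb with shCHAF1B-2. The order depends on the length used: with the longest transcript instead of the exon union, PKP2 (30.6 CPM per kb in shGFP) ranked above DSC3, and JUP ranked above DSP in both knockdown groups.

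The makeup of the desmosome transcript pool differed between groups while its summed level overlapped between them. The summed level of the 4 cadherins was 140.5 ± 1.57 CPM per kb in shGFP, 139 ± 3.11 with shCHAF1B-1 and 140.1 ± 5.57 with shCHAF1B-2, and that of all 9 genes was 398 ± 12.4, 401 ± 8.84 and 384 ± 19.3 CPM per kb. Within the desmocollin pair, DSC2 made up 18.8% ± 0.621 of the summed CPM per kb in shGFP and 34.4% ± 0.648 and 33.6% ± 1.47 in the knockdown groups. Within the desmoglein pair, DSG2 went from 61.7% ± 0.693 to 70.1% ± 1.08 and 70.1% ± 0.0713. In both pairs the paralogue found in simple epithelia held a larger share in all 6 knockdown libraries than in any control. PKP2, the plakophilin of simple epithelia and heart, did not follow this pattern. Its level was lower in all 6 knockdown libraries than in any control, though it was not called. JUP was 38.0% ± 1.43 of JUP and DSP together in shGFP, against 49.5% ± 2.71 and 48.1% ± 2.69, again without overlap. PKP3 was 70.8% ± 2.84 of PKP2 and PKP3 together in shGFP, against 74.6% ± 1.27 and 72.04% ± 1.03. The PKP3 share with shCHAF1B-2 overlapped that of the controls (67.6% to 73.04%). With shCHAF1B-1 it lay just above every control, at 73.6% to 76.0%. These shares restate the changes of single genes, were computed after those had been seen, and were not tested. The size of shares and sums depends on the length used, here the exon union. With the longest transcript instead, JUP had 104 and DSP 123 CPM per kb in shGFP. Without shCHAF1B-1 replicate 3, the means of the other 2 libraries were 34.7% for DSC2, 70.05% for DSG2, 50.8% for JUP and 75.0% for PKP3, and 139 CPM per kb for the 4 cadherins and 403 CPM per kb for all 9 genes. The summed level of the basal epithelial markers was lower in all 6 knockdown libraries, and its part in the shares was not tested. Among these markers KRT5, KRT14 and CDH3 were lower with both hairpins, and TP63 with shCHAF1B-1 only. ITGA6 was higher with both, at log2 fold changes of 0.20 and 0.22.

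**Figure D4:**
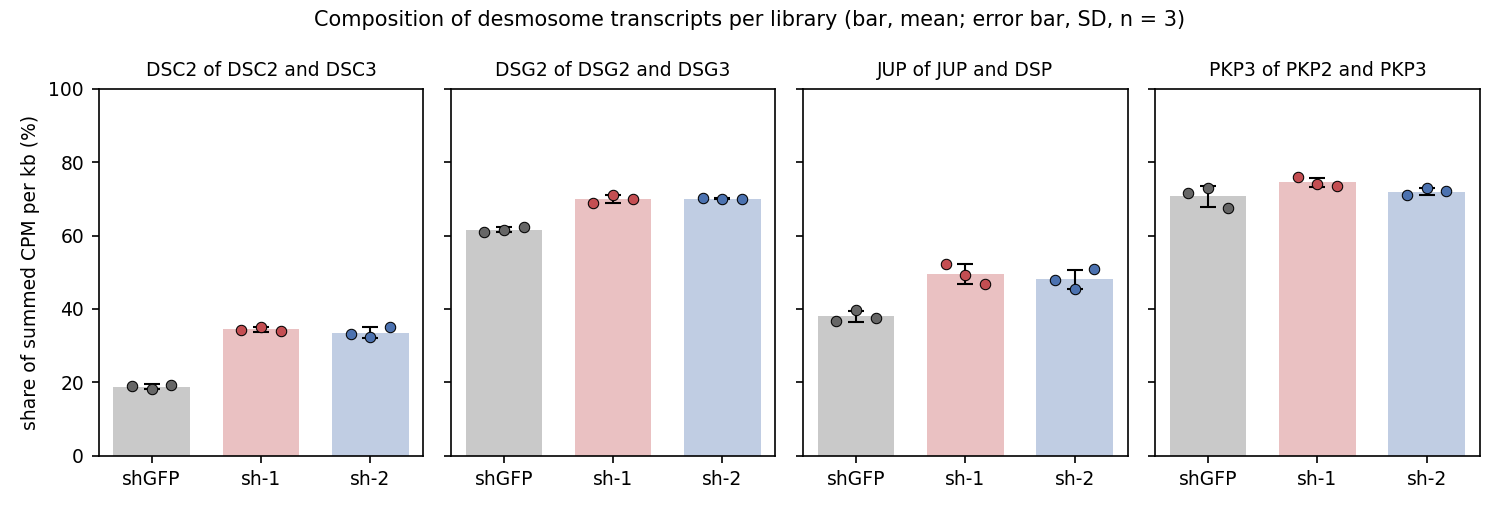
Share of the summed CPM per kb held by the first gene of each pair (y axis, 0 to 100%) in the 3 libraries of each group (points), with group means (bars) and SD (error bars); sh-1 and sh-2 are the CHAF1B hairpins. The DSC2 share goes from 18.8% in shGFP to 34.4% and 33.6%, and the PKP3 share overlaps between shGFP and shCHAF1B-2.

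Of 9 further desmosome genes, 5 were tested, of which 0 were higher (27.9% and 26.7% of all tested genes with the respective hairpins) and 1 was lower with each hairpin (25.2% and 24.6% of all). The lower gene was KAZN, encoding kazrin, a binding partner of periplakin, with log2 fold changes of -0.43 (SE 0.0640, adjusted p = 7.3e-05) and -0.50 (SE 0.0647, adjusted p = 2.3e-05); without shCHAF1B-1 replicate 3 the first was -0.39 (adjusted p = 5.2e-04). PERP, a membrane protein of desmosomes, had -0.15 and -0.05, the plakin PPL -0.03 and -0.12, the plakin EVPL 0.04 and -0.13, and PKP4, a relative of the plakophilins, -0.07 and -0.09, and none of these passed. CDSN, corneodesmosin, had 14 counts in all and was not tested.

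Of 14 tested adherens junction genes, 10 were higher (23.8% of all tested genes) and 1 was lower (20.8% of all) with both hairpins, with medians of 0.30 and 0.28 against -0.00 and -0.01 over all genes. CTNNB1, beta-catenin, the relative of JUP, rose with log2 fold changes of 0.54 and 0.59 (SE 0.0484 in both), and the neural cadherin CDH2 with 0.50 and 0.59 (SE 0.0731 and 0.0732). LIMA1 and alpha-catenin CTNNA1, which tie junctions to actin, rose by 0.31 and 0.36 and by 0.31 and 0.30 on the log2 scale. The lower gene was the placental cadherin CDH3, at -0.15 and -0.18 (SE 0.0447 and 0.0448), which was not called with shCHAF1B-1 once replicate 3 of that group was left out (-0.11, adjusted p = 0.0870). Of 9 hemidesmosome genes, which anchor the basal side of the cell, 7 were higher and 1 was lower with both hairpins, again against 23.8% and 20.8% of all tested genes, with medians of 0.91 and 0.61. The counts were also 7 and 1 without shCHAF1B-1 replicate 3. Among those that rose were the laminin chains LAMA3 (log2 fold changes of 1.59 and 1.56) and LAMB3 (1.47 and 1.36) and the integrin ITGB4 (1.03 and 0.87). The lower gene was the plakin DST, at -0.40 and -0.37 (SE 0.0809 in both), and CD151, a tetraspanin, did not pass at -0.15 and -0.11.

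**Figure D5:**
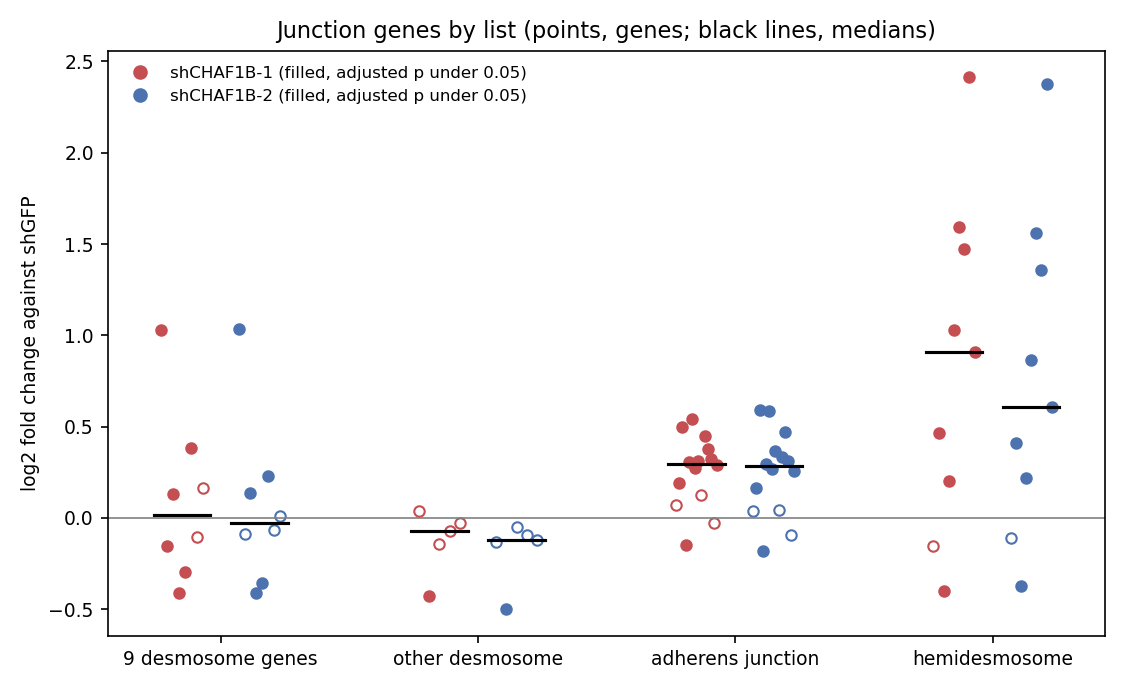
Log2 fold change against shGFP (y axis) of the tested genes of each junction list (x axis) with shCHAF1B-1 (red) and shCHAF1B-2 (blue); filled points passed an adjusted p of 0.05 and black lines are medians. The medians are 0.01 and -0.03 for the 9 desmosome genes (8 tested), -0.07 and -0.12 for the other desmosome genes, 0.30 and 0.28 for adherens junctions, and 0.91 and 0.61 for hemidesmosomes.

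Among 14 intermediate filament genes, the filaments to which DSP attaches, 6 were higher and 3 lower with both hairpins, against 23.8% and 20.8% of all tested genes, with medians of 0.18 and 0.10. The share that was lower lay near that of all genes, and without shCHAF1B-1 replicate 3 the counts were also 6 and 3. The 3 lower genes were the basal keratins KRT5 (-0.83 and -0.85, SE 0.0527 in both), KRT14 (-0.51 and -0.53, SE 0.0687 and 0.0691) and KRT17 (-1.14 and -1.19, SE 0.0775 and 0.0776). Among those that rose were KRT80 (1.65 and 1.48), vimentin VIM (1.08 and 1.179) and the basal keratin KRT15 (0.87 and 0.75). Keratin genes have close copies and pseudogenes, so their values are less certain than those of the desmosome genes.

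Of 22 genes that regulate desmosome genes or desmosome turnover, 20 were tested, of which 12 were higher with both hairpins (23.8% of all tested genes) and 3 were lower with both (20.8% of all), with medians of 0.46 and 0.38. The counts were also 12 and 3 without shCHAF1B-1 replicate 3. SNAI2 and ZEB1, repressors that bind the E-box shown above, rose with log2 fold changes of 0.79 and 0.88 (SE 0.0484 and 0.0485) and of 1.502 and 1.38 (SE 0.106 and 0.107). The sheddase ADAM17 and the protease KLK5 rose by 0.51 and 0.53 and by 1.85 and 1.43 on the log2 scale. Lower with both were the sheddase ADAM10 (-0.31 and -0.20), the transcription factor KLF5 (-0.25 and -0.15) and the receptor EGFR (-0.22 and -0.23). TP63, the master factor of basal epithelium, was at -0.15 (adjusted p = 0.0126) and -0.04 (adjusted p = 0.513), and GRHL3, an epithelial factor, at -0.15 (adjusted p = 0.0602) and -0.24 (adjusted p = 0.00734), so that each passed with 1 hairpin. For neither was the difference between hairpins past the threshold (adjusted p = 0.438 and 0.607).

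The hairpin difference was 0.00 (-0.10 to 0.11) for DSC2, 0.00 (-0.10 to 0.11) for DSG2, 0.04 (-0.05 to 0.13) for PKP2 and -0.15 (-0.34 to 0.04) for PKP3, each with its 95% interval on the log2 scale. The interval held 0 for 7 of the 8 tested genes, all but JUP, which does not show that the hairpins act alike beyond those bounds. Over all 16235 tested genes, 1800 had an unadjusted p under 0.05 in this comparison. Without shCHAF1B-1 replicate 3 the difference was -0.19 (-0.33 to -0.04) for JUP and -0.21 (-0.41 to -0.01) for PKP3, with an adjusted p of 0.586 for each. Leaving out shCHAF1B-1 replicate 3 gave 1.04 for DSC2, -0.41 for DSG3, -0.33 for DSP, 0.42 for JUP and -0.16 for DSC3 with that hairpin, all still past the threshold.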

How the data were processed

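The authors deposited unnormalized read counts per gene. Tools listed in the submitters' processing notes are HTSeq 0.8.0, STAR 2.5.3a and DESeq2 1.18.1, with the builds hg38 and mm10; the annotation and strand setting are not given in the sources used here. The kit, TruSeq RNA version 2 per the labels' protocols, does not keep strand. Identifiers were matched to GENCODE release 29 (26149 matched, 37 did not). The lowest total of a row was 7 counts.

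Genes were filtered with filterByExpr (minimum count 10, minimum total 15, proportion 0.7), scaled with TMM, and tested with edgeR 4.0.16 (quasi-likelihood test, R 4.3.3), fitting the 9 libraries together with a term for group alone; p-values were adjusted (Benjamini-Hochberg) over all tested genes. The biological coefficient of variation was 6.24%. Floors allow for counting error only. The reads carry no molecular identifiers, so repeated copies of 1 molecule could not be removed from the counts. Libraries of a group differed by more than sampling noise and each counted as 1 replicate. In data simulated for shCHAF1B-1 against shGFP (15895 genes), 63.3% of 49 genes changed 1.5-fold and 85.7% of 49 changed 2-fold were recovered. Far more genes were called in the actual comparison (4536 higher and 4096 lower), so these rates may not hold for it.

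The members and lists were chosen with earlier results of these data known. Named were all 9 genes, CHAF1B, the cluster and its next genes, up to 4 genes per list with the smallest larger adjusted p of both hairpins, any gene behind a count of 5 or fewer, and for each member the 2 genes most correlated with it; 1 gene that this rule names is not reported here. Marker lists for fibroblasts, T lymphocytes, myeloid, endothelial cells and melanocytes were also summed. Alternatives were other scalings, DESeq2 1.42.0, limma-voom (limma 3.58.1), other filters, a threshold of 0.01, a block for the replicate number, a fit restricted to the groups compared, the longest transcript as length, and leaving out each library. The GC classes, the shares, and the list counts and shares without shCHAF1B-1 replicate 3 were added after values were seen.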

Additional observations from a re-analysis of the deposited data

How the results depend on the processing

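DSC2, DSG3, DSP and JUP kept direction and call in all 19 alternatives with each hairpin: DSC2 at 0.94 to 1.05 and 0.96 to 1.06, DSG3 at -0.50 to -0.39 and -0.49 to -0.38, JUP at 0.29 to 0.42 and 0.15 to 0.27. Under upper-quartile scaling and with no scaling beyond the library total, the desmosome genes lower with shCHAF1B-2 numbered 4 rather than 2. Those lower with both hairpins did too, DSC3 and PKP2 being the additions. Among all 16235 tested genes, those lower with shCHAF1B-2 also went from 3996 to 4458 and 5104 under the respective scalings. Those lower with both hairpins went from 3381 to 3769 and 4429. These scalings lower all fold changes (median of all genes -0.05 and -0.09 with shCHAF1B-2). With the replicate number as a block, DSG2 had 0.13 (adjusted p = 0.0589) and 0.13 (adjusted p = 0.0570) with the respective hairpins and was no longer called; no other call among these genes changed. Correlations between libraries of the same number were -0.138 to 0.100, so the numbers were not taken to pair them.

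Values that changed sign were near 0 and not called. They were the hairpin difference of DSC2 (-0.00254 with upper-quartile scaling; -0.0142 to 0.0315 leaving out each library), of DSG2 (-0.00532 with upper-quartile scaling, -0.00247 with a filter of 1 CPM; -0.0297 to 0.0367), of DSG3 (0.00102 with RLE scaling, 0.00687 with no scaling, 0.00110 with DESeq2, 0.00175 with only the groups compared; -0.0303 to 0.0316) and of DSP (-0.17 to 0.0210). PKP3 with shCHAF1B-2 was at -0.0229 (upper quartile), -0.0673 (no scaling) and -0.000419 (1 CPM filter), and at -0.0899 to 0.0919 leaving out each library. Changes under 1.5-fold, which were not simulated, make up most of those here, and depth leaves PKP1 unmeasured.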

Other observations

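Over the 9 libraries, the log2 levels of some desmosome genes ran closely together or apart. Pearson's r was -0.985 between DSC2 and DSG3, 0.869 between DSG3 and DSP, and -0.843 between DSC2 and DSP; these points share their 3 groups, so the values mostly restate the group differences. JUP and PKP3, both rich in G and C, had r = 0.739, and DSG2 and PKP3 had r = 0.00965.

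Among 11763 protein-coding genes with a mean of at least 1 CPM, the pattern most like that of DSC2 was held by UBASH3B and LPIN2 (r = 0.999 each), and 1599 genes had r over 0.95 with it. DSG3 was closest to NAAA (r = 0.997) and RRP1B (r = 0.993), with 642 genes over 0.95. DSP was closest to YLPM1 (r = 0.991) and HIVEP2 (r = 0.989), and JUP to ACTB and GUK1 (r = 0.993 each). DSG2 was closest to MAML2 (r = 0.982) and CLK4 (r = 0.980). DSC3 was closest to ZNF215 (r = 0.965) and PHIP (r = 0.963), PKP2 to ARHGEF5 (r = 0.955) and HPSE (r = 0.954), and PKP3 to FBXW5 (r = 0.990) and TOR4A (r = 0.978).

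Summed markers of other cell types, given as values, were 7.999 to 8.42 CPM for fibroblasts in shGFP and 12.6 to 15.5 CPM in the knockdown libraries (5 of 7 markers in the table), and 3.87 to 4.49 CPM against 10.6 to 12.6 CPM for endothelial cells (4 of 5). Myeloid markers summed to 29.1 to 32.9 CPM in shGFP and 41.2 to 45.6 CPM in the knockdown libraries (4 of 5), melanocyte markers to at most 2.59 CPM (2 of 4), and the only T lymphocyte marker in the table, of 6, to at most 0.168 CPM.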
